A study of Mus musculus with 12 samples.

Results

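The cytosolic ribosomal protein genes were followed across 12 mouse kidney libraries. They were chosen by symbol: names beginning with Rpl or Rps and a digit, with Rpsa, Rplp0, Rplp1 and Rplp2, and without the Rps6 kinases, pseudogenes and 7 like-genes. This gave 81 of 21003 genes, 49 of the large subunit and 32 of the small subunit. RNA sequencing had been done on frozen kidneys of 8-week-old mice of the ICR strain, an outbred stock. The 4 groups of 3 libraries were busulfan, busulfan with 10 mg/kg L.J. (busulfan+L.J.), 10 mg/kg L.J. alone, and control. Busulfan, a drug used to ablate bone marrow, alkylates and crosslinks DNA. The term L.J. is not spelled out in the labels, the titles write it as Lu, and the design text speaks of FMT, so what these groups were given is uncertain. The labels give no busulfan dose and no sex, and replicates are not said to be separate animals. The p-values therefore rest on how far libraries of the same group lie apart, pooled over the 4 groups, and this spread may be technical. The study asked whether L.J. counters the effects of busulfan on the kidney.

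A ribosome has a small subunit, which holds the mRNA and reads its codons, and a large subunit, which joins amino acids and passes the new chain out through a tunnel. Each ribosomal protein is normally present once per ribosome, the acidic stalk proteins Rplp1 and Rplp2 apart, and cells match their supply to that of ribosomal RNA. The mRNAs of vertebrate ribosomal proteins typically begin with a cytosine and a run of pyrimidines, the 5′ terminal oligopyrimidine (TOP) motif, through which the kinase mTOR controls their translation.

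The start sites are shown because they are the regulatory feature that these genes are known to share. Of the 81 genes, 61 were found in the RefSeq promoter table of GRCm38.p6. A C followed by at least 4 pyrimidines, read on the gene's strand from an annotated start, was present in 15 of these 61 genes (24.6%) and in 2.91% of tested genes in the same table. The letters CTTTC, which can lie within such a run, occurred on the gene's strand between 25 bases before and 50 bases after a start in 52.5% of the members and 9.65% of the tested genes. The windows below run from 30 bases before to 20 bases from the annotated start, with the pyrimidine run at the start in capitals. The first 4 have such a run and the other 3 have none at that position.
Rpl38: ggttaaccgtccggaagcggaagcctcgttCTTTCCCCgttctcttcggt
Rplp2: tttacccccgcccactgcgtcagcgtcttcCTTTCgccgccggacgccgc
Rps27: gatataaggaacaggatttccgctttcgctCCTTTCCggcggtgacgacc
Rps6: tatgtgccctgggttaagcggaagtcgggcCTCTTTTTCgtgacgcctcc
Rps7: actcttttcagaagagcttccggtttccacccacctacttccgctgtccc
Rps28: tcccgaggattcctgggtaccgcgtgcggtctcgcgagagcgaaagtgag
Rpl36al: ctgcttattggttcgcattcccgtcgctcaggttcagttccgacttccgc

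In GRCm38.p6 these windows lie at chr11:114668550-114668599, plus strand (Rpl38), chr7:141447621-141447670, plus strand (Rplp2), chr3:90213629-90213678, minus strand (Rps27), chr4:86857348-86857397, minus strand (Rps6), chr12:28635934-28635983, minus strand (Rps7), chr17:33824543-33824592, minus strand (Rps28) and chr12:69184048-69184097, minus strand (Rpl36al). Each surrounds an annotated transcript start, with 30 bases before it and 20 from it on. For Rpl38 that start lies inside the span annotated for the gene, so its first 30 bases are not upstream of the whole gene. The member that differed least from control under busulfan, Rpl36al, and one of the members with the smallest p, Rps7, both lack a run at the annotated start, while Rps6, which has one, was also among the small differences. Among tested members, the 13 with a run had a median log2 difference of 0.59 in busulfan against control and the 46 without had 0.59. A match, or none, describes these letters at annotated starts.

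Levels are given as FPKM, which divide each gene's fragments by its length and by the library's total, so they can be compared between genes. A gene was tested where it reached 1 FPKM in at least 3 libraries, which 79 members did, 48 of the large and 31 of the small subunit. Mean FPKM over the 12 libraries ran from 3.54 (Rpl34) to 944 (Rpl41) in the large subunit, with a median of 243, and from 9.65 (Rps15a) to 636 (Rps2) in the small subunit, with a median of 234. Rpl41, whose product is a very short peptide, Rpl23a, which sits by the exit tunnel, and Rpl28 were the highest of the large subunit, and Rps2, Rps24 and Rps27 those of the small subunit. Of the tested members, 8 large and 3 small subunit genes averaged under 100 FPKM. The small ones were Rps15a, Rps6 and Rps20, with Rps6, the phosphorylated target of the S6 kinases, at 13.7, 12.3 and 10.7 FPKM in the control libraries. Levels of single members are uncertain where reads can be shared with copies: the pseudogenes Rpl34-ps1 and Rpl31-ps12 averaged 186 and 141 FPKM while Rpl34 averaged 3.54.

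The 2 members below the filter were Rpl32l and Rps27rt, whose symbols mark them as copies. Rpl32l was at 0.140, 0 and 0.460 FPKM in the busulfan libraries, at 0.280, 0.270 and 0.310 in busulfan+L.J., at 0, 0 and 0.140 in L.J. and at 0, 0.410 and 0 in control. Rps27rt was listed at 0 in 10 libraries, with 2.46 FPKM in busulfan 2 and 2.60 FPKM in busulfan+L.J. 1. Another such copy, Rpl37rt, passed the filter and is counted among the members. The members were short, with a median transcript length of 886 bases against 2924 bases in all tested genes, and their median GC content was 51.6%, against 50.4% in tested genes. They lay on 19 chromosomes, with 14 of the 81 on chromosome 7.

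Busulfan 3 stood apart from busulfan 1 and 2. Its deviation from each gene's mean fell with transcript length (Spearman rho across tested genes -0.52; other 11 libraries, -0.07 to 0.31) and rose with GC content (0.38; other libraries, -0.30 to 0.14). Kap, an abundant androgen-regulated proximal tubule transcript, made up 2.13%, 1.03% and 9.32% of all FPKM in busulfan 1, 2 and 3, and 6.61% to 9.73% in the other groups. Summed FPKM per library was between 481937 and 541844. Read depth is unknown, since no counts were used here.

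The summed FPKM of the 81 members took 6.0%, 7.29% and 3.96% of all FPKM in busulfan 1, 2 and 3, against 3.76%, 3.73% and 3.73% in the control libraries. In busulfan+L.J. the shares were 3.75%, 3.55% and 3.75%, and in L.J. alone 3.56%, 3.72% and 3.63%. Busulfan 1 and 2 therefore lay far above the other 10 libraries, and busulfan 3 just above them. Busulfan 1 and 2 were also above every other library for each subunit taken alone. The large subunit held 3.66%, 4.46% and 2.49% in busulfan and 2.36%, 2.33% and 2.33% in control, and the small subunit 2.34%, 2.83% and 1.48% in busulfan and 1.40%, 1.40% and 1.40% in control. The small subunit share of busulfan 3 was matched by that of busulfan+L.J. 3, also 1.48%. The ratio of the large to the small sum was 1.57, 1.58 and 1.68 in busulfan, within the range of 1.54 to 1.73 over the other libraries. With Kap left out of the total the shares were 6.13%, 7.36% and 4.37% in busulfan and 4.17%, 4.11% and 3.99% in control.

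**Figure D1:**
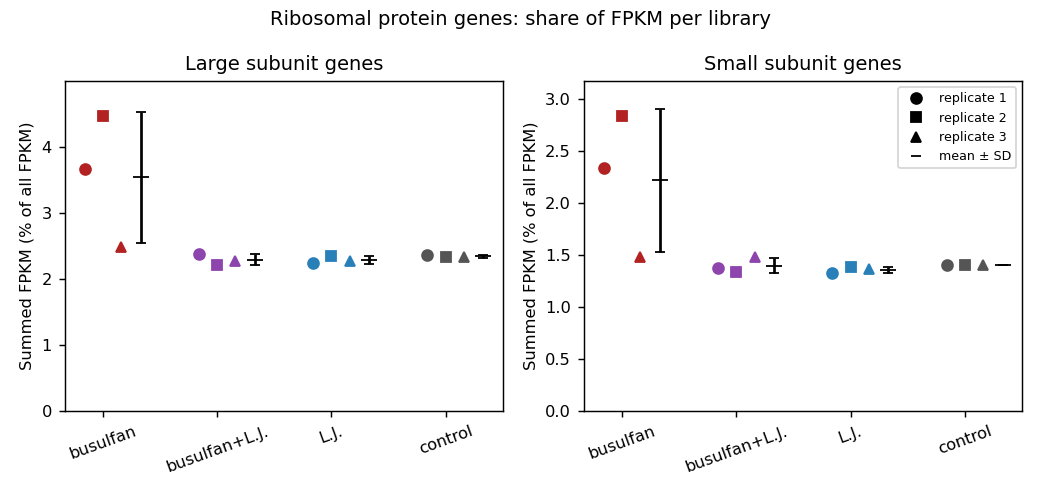
Summed FPKM of large (left) and small (right) subunit genes as a percent of all FPKM in each library; symbols mark replicates and bars show the group mean ± SD. Busulfan 1 and 2 stand above all other libraries in both panels, and the large subunit share of busulfan 3 (2.49%) lies close to the control values (2.33% to 2.36%).

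Busulfan was first set against control. All 79 tested members had a higher mean log2 value in busulfan, with a median log2 difference of 0.60 (1.51-fold) and a range from 0.02 (Rpl36al) to 0.86 (Rpl36), where the median of all tested genes was 0.08. The median was 0.56 in the large and 0.66 in the small subunit. On limma's test with adjustment over all tested genes, 11 members rose, 7 of the large and 4 of the small subunit, and none fell. That is 13.9% of the members, beside 0.725% of all tested genes called higher. At an unadjusted p under 0.05, 73 members were higher (92.4%, beside 15.5% of tested genes). In 66 members every busulfan library exceeded every control library (83.5%, beside 14.7% of tested genes).

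Without busulfan 3, 76 of the 79 members rose (96.2%), but so did 24.4% of all tested genes, and the members' median was 0.78. Without any one of the other 11 libraries the count fell to between 0 and 3, beside 0% to 1.19% of tested genes called. With length and GC trends removed from each library the median was 0.41 and limma called 0 members, with 50 at an unadjusted p under 0.05 in either direction (20.4% of tested genes). In single libraries the large subunit median against the control mean was 0.63, 0.91 and 0.21 in busulfan 1, 2 and 3 as deposited, and 0.46, 0.63 and 0.02 after that correction. For the small subunit it was 0.69, 1.01 and 0.21 as deposited, and 0.55, 0.77 and 0.01 corrected. The corrected medians were thus near 0 in busulfan 3 and positive in busulfan 1 and 2.

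**Figure D2:**
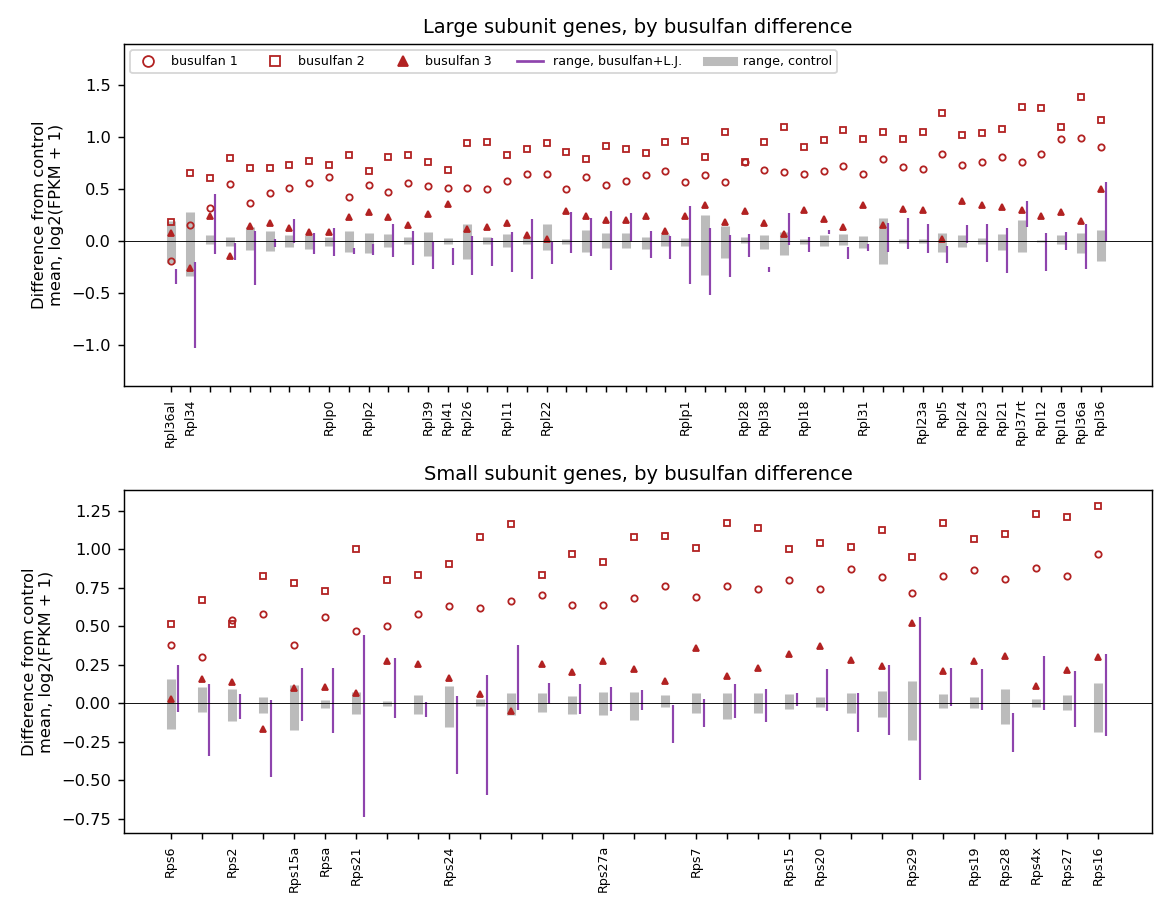
Difference of each tested member from its control mean in log2(FPKM + 1), sorted by the busulfan difference, for the large (top) and small (bottom) subunit; red symbols are the 3 busulfan libraries, violet lines the range of busulfan+L.J. and grey bars the range of control. Busulfan 2 is the highest busulfan library in 77 of 79 members and busulfan 3 the lowest in 78, and most violet lines cross or lie near 0; names are given for members described in the text.

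Of the large subunit genes that rose, Rplp2 encodes an acidic protein of the stalk that recruits elongation factors. It had 328, 361 and 274 FPKM in the busulfan libraries, 216, 205 and 220.5 in busulfan+L.J., 229.5, 219 and 206 in L.J. and 238, 232 and 208 in control. The busulfan values all lay above the other 9 (log2 change 0.50, SE 0.11, adjusted p = 0.0486 by limma, busulfan against control). Its partner Rplp1 had 387, 509 and 309 FPKM in busulfan and 265, 267 and 252 in control, without overlap, but did not pass (adjusted p = 0.1198). Rplp0, which anchors the stalk, had 425, 459 and 294 FPKM in busulfan and 268, 279 and 285 in control (adjusted p = 0.0976). For Rpl12, at the stalk base, the values were 364, 496 and 240.3 FPKM in busulfan and 203, 205 and 202 in control, and its adjusted p was 0.0665. The stalk genes thus had the same order of libraries, busulfan 2 highest and busulfan 3 lowest in each of the 4.

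Rpl31, which rings the exit of the tunnel, had 110.00, 140.1 and 89.6 FPKM in busulfan, 66.5, 68.6 and 65.3 in busulfan+L.J., 73.9, 81.7 and 69.3 in L.J. and 72.4, 67.1 and 71.1 in control (log2 change 0.66, SE 0.13, adjusted p = 0.0428 by limma, busulfan against control). Every busulfan library was above every other library. It was the only one of the 10 listed exit tunnel genes to pass, and the median difference of those 10 was 0.57. Rpl39, which lines the tunnel, had 179.7, 211 and 149 FPKM in busulfan and 129, 132 and 113 in control, again without overlap (adjusted p = 0.0692). Rpl22, which also binds RNA outside the ribosome, overlapped: 83.0, 103 and 53.3 FPKM in busulfan and 59.3, 49.98 and 49.5 in control (adjusted p = 0.125).

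Rpl24, whose product reaches across to the small subunit, had 346, 424 and 273 FPKM in busulfan, 233, 206 and 215 in busulfan+L.J., 208, 249.7 and 206 in L.J. and 217, 208 and 201 in control, with no overlap between busulfan and control (log2 change 0.71, SE 0.14, adjusted p = 0.0428 by limma). Rpl10a, a protein of the other stalk, where spent tRNA leaves, had 334, 362 and 205 FPKM in busulfan and 165, 165 and 176 in control (log2 change 0.79, SE 0.17, adjusted p = 0.0486). Its busulfan 1 and 2 values were close to each other and its busulfan 3 value was the nearest to control. Rpl36 had 237, 286 and 179 FPKM in busulfan and 111, 136 and 134 in control, the largest difference of the 79 (log2 change 0.86, SE 0.18, adjusted p = 0.0457). The 7 large subunit genes that rose included Rpl18 as well, with 336, 403 and 264 FPKM in busulfan and 216, 209.6 and 217 in control (adjusted p = 0.0451).

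Rpl5, Rpl11, Rpl23 and Rpl26 can bind Mdm2, the ubiquitin ligase of p53, when ribosome assembly is disturbed, Rpl5 and Rpl11 together with 5S ribosomal RNA. Of the 4, Rpl23 rose, with 158, 191 and 118 FPKM in busulfan and 90.6, 92.3 and 94.0 in control (log2 change 0.72, SE 0.15, adjusted p = 0.0476 by limma). Rpl5 had 587, 774 and 331 FPKM in busulfan and 345, 335 and 305 in control, so busulfan 1 and 2 were high and busulfan 3 lay within the control range (adjusted p = 0.114). Rpl11 had 555, 659.8 and 419.96 FPKM in busulfan and 370.1, 356 and 388 in control, without overlap (adjusted p = 0.0958). Rpl26 had 553, 746 and 422 FPKM in busulfan and 435, 392 and 344 in control, and overlapped through busulfan 3 (adjusted p = 0.131).

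In the small subunit Rps7, Rps15 and Rps20 were among the genes that rose. Rps7, needed for processing of ribosomal RNA, had 302, 376 and 239 FPKM in busulfan, 175, 167 and 189.6 in busulfan+L.J., 171, 191 and 174 in L.J. and 186, 195 and 178 in control, and the busulfan libraries were above all others (log2 change 0.69, SE 0.14, adjusted p = 0.0428 by limma, busulfan against control). Rps15, near the decoding site, had 661, 760.3 and 474 FPKM in busulfan and 395, 372 and 369.8 in control (log2 change 0.71, SE 0.14, adjusted p = 0.0428). Rps20, in the head of the subunit, had 28.6, 35.5 and 21.9 FPKM in busulfan and 16.4, 16.5 and 17.3 in control (log2 change 0.72, SE 0.15, adjusted p = 0.0428). The 3 genes differ widely in level and yet had nearly the same log2 difference.

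Other small subunit genes lay as high without passing. Rps16 and Rps27 had the largest differences of the subunit, 0.85 and 0.75 on the log2 scale (adjusted p = 0.0659 and 0.0731), with Rps27 at 691, 902 and 452 FPKM in busulfan and 386, 404 and 378 in control. Rps19, the gene most often mutated in human Diamond-Blackfan anaemia, had 268, 308 and 178 FPKM in busulfan and 151, 146 and 143 in control, without overlap (adjusted p = 0.0511). Mouse orthologs of 19 genes of that disease were listed, of which Rps7, Rpl18 and Rpl31 rose and none fell, with a median of 0.60. Over all tested members 13.9% rose, and their median was also 0.60. Rps4x, an X-linked gene, had 413, 527 and 242 FPKM in busulfan and 224, 220.4 and 228 in control (adjusted p = 0.0892). Rps27a, made as a fusion with ubiquitin, had 312, 379 and 242 FPKM in busulfan and 201, 210.2 and 189.7 in control (adjusted p = 0.0543), and Rpsa, also known as a laminin receptor, had 245, 274 and 178 FPKM in busulfan and 168, 162 and 167 in control (adjusted p = 0.106).

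**Figure D3:**
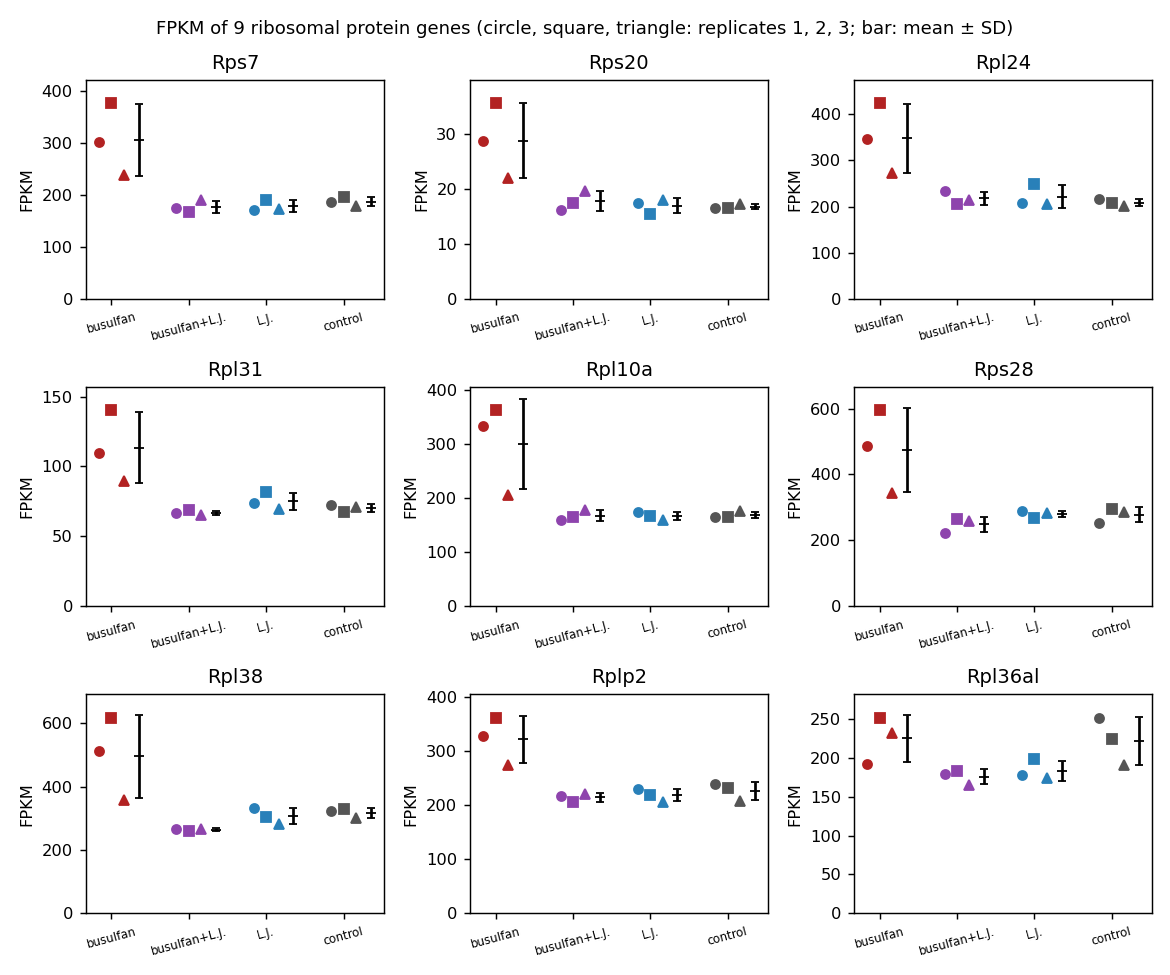
FPKM of 9 members in each library by group; circles, squares and triangles are replicates 1, 2 and 3 and bars show mean ± SD. In 8 of the genes the 3 busulfan libraries lie above every control library; in Rpl36al the groups overlap (busulfan 192 to 251 FPKM, control 190.0 to 251 FPKM).

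The smallest differences were those of Rpl36al and Rpl34 in the large subunit and Rps6 in the small subunit. Rpl36al, an autosomal copy of the X-linked Rpl36a, had 192, 251 and 232 FPKM in busulfan, 179, 183 and 165 in busulfan+L.J., 177, 198 and 174 in L.J. and 251, 224 and 190.01 in control, and busulfan and control overlapped (log2 change 0.02, SE 0.12, adjusted p = 0.938 by limma). Rpl36a itself had 332, 437 and 190.3 FPKM in busulfan, 187, 156 and 138 in busulfan+L.J., 143, 181 and 134 in L.J. and 176, 171 and 153 in control, the second largest log2 difference of the 79 (log2 change 0.86, SE 0.25, adjusted p = 0.0851). The pair thus lay near both ends of the range, though how the authors' counting split reads between these near-identical genes is not given in the sources used here. Rps6 had 16.1, 17.8 and 12.4 FPKM in busulfan and 13.7, 12.3 and 10.7 in control, with overlap (adjusted p = 0.257).

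The proportions among the members were compared next. Each gene's share of the members' summed FPKM was computed in every library, and the busulfan mean divided by the control mean lay between 0.68 (Rpl36al) and 1.21 (Rpl36a), with 77 of 79 members between 0.8 and 1.25. The counts in that band were 77 for busulfan+L.J. against busulfan, 78 for L.J. against control and 78 for busulfan+L.J. against control. Across the 79 members the busulfan difference had a Spearman rho of -0.11 with transcript length, -0.07 with GC content and 0.04 with level. By subunit, rho with level was -0.04 in the large and 0.27 in the small subunit. For busulfan+L.J. against busulfan, rho with level was 0.06 in the large and -0.43 in the small subunit. Level here is the mean over all 12 libraries, which include those compared, so it is not independent of the differences. Whether the subunits differ in this was not tested. The spread within a group was itself uneven: the median coefficient of variation of a member was 24.8% in busulfan, 10.3% in busulfan+L.J., 5.57% in L.J. and 4.52% in control, where the medians over all tested genes were 17.8%, 11.5%, 9.12% and 8.34% in the same order.

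**Figure D4:**
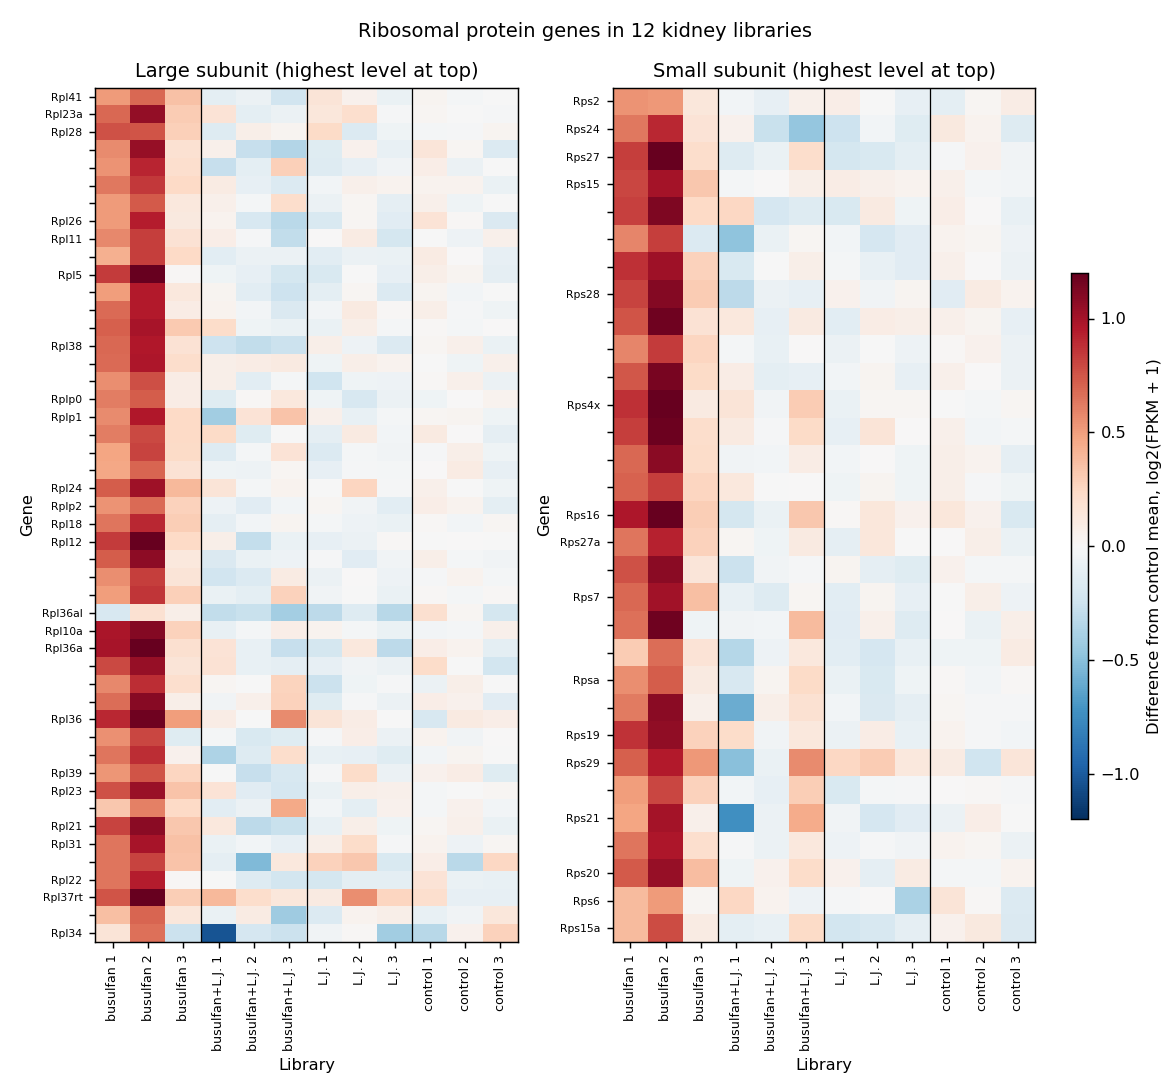
Difference from the control mean in log2(FPKM + 1) for the 48 large (left) and 31 small (right) subunit genes, highest mean level at the top, in each of the 12 libraries; names are given for members described in the text. The busulfan 1 and 2 columns are red in nearly every row, busulfan 3 is paler, and the columns of the other 3 groups vary around 0 by gene.

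Busulfan+L.J. was then set against busulfan, a comparison that uses the same 3 busulfan libraries as the first. All 79 members had a lower mean, with a median log2 difference of -0.63 (-0.63 in each subunit), where the median of all tested genes was -0.09. In limma's test 29 members fell, 18 of the large and 11 of the small subunit, and none rose. That is 36.7% of the members, beside 2.06% of tested genes called lower. At an unadjusted p under 0.05, 76 members were lower (96.2%, beside 15.8% of tested genes), and in 53 all 3 busulfan+L.J. libraries lay below all 3 busulfan libraries (67.1%, beside 12.1%).

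Rpl41 had the smallest p, with 796, 821 and 735 FPKM in busulfan+L.J. and 1229, 1389 and 1101 in busulfan (log2 change -0.66, SE 0.12, adjusted p = 0.0320 by limma). Its L.J. libraries had 961, 896 and 815 FPKM and its control libraries 881, 847 and 859, so the busulfan+L.J. values were below every control value and overlapped those of L.J. Rpl38, needed in mice for translation of some Hox mRNAs, had 267, 259 and 266 FPKM in busulfan+L.J., 512, 618 and 358 in busulfan, 334, 305 and 283 in L.J. and 322, 331 and 301 in control. The 3 busulfan+L.J. values lay close together and under every other library (log2 change -0.87, SE 0.16, adjusted p = 0.0331, busulfan+L.J. against busulfan). Rps28, near the mRNA exit, had 222, 265 and 259 FPKM in busulfan+L.J. and 486, 595 and 343 in busulfan, without overlap (log2 change -0.90, SE 0.17, adjusted p = 0.0340).

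Among the others with small p, Rpl21 had 79.4, 58.5 and 60.3 FPKM in busulfan+L.J. and 128, 155 and 91.4 in busulfan (adjusted p = 0.0340). Rps7, Rpl31, Rplp2, Rpl18, Rpl23 and Rpl39 fell too, with log2 changes of -0.76, -0.73, -0.57, -0.65, -0.78 and -0.67 and adjusted p between 0.0320 and 0.0372 by limma. In the exit tunnel list 6 of 10 genes fell, in the small subunit mRNA path list 4 of 10, in the stalk list 2 of 4 and among the Diamond-Blackfan orthologs 6 of 19. Of the 4 listed genes whose products can bind Mdm2, 1 fell, Rpl23. All of these are members, of which 36.7% fell as a whole, beside 2.06% of tested genes. Rps6 had the smallest difference, with 14.7, 12.6 and 11.7 FPKM in busulfan+L.J. and 16.1, 17.8 and 12.4 in busulfan, and the libraries overlapped (adjusted p = 0.386). Rpl36al did not pass either, although its busulfan+L.J. libraries were all below its busulfan libraries (log2 difference -0.35, adjusted p = 0.127).

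Without busulfan 3, 76 members fell, as did 23.6% of tested genes, and the members' median was -0.82. Without any one of the other 11 libraries the count was between 0 and 3, beside 0.00814% to 0.7% of tested genes called. After the length and GC correction the median was -0.37 and limma called 0 members, with 49 at an unadjusted p under 0.05 in either direction (21.8% of tested genes).

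No member passed the test between L.J. alone and control. The median difference was -0.04 over the 79 members, limma called 0 of them (0% of tested genes) and 0 had an unadjusted p under 0.05, beside 2.74% of tested genes. Differences ran from -0.27 (Rpl36al) to 0.31 (Rpl37rt), and 57 members were lower and 22 higher. For busulfan+L.J. against control, which uses the same control libraries, the median was -0.03, with 51 members lower and 28 higher. Limma called 0 members (0.00814% of tested genes), and 1 had an unadjusted p under 0.05, beside 2.87% of tested genes. The large subunit median was -0.06 and the small subunit median 0.00.

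A few members varied widely among the busulfan+L.J. libraries. Rps29 had 97.5, 131 and 205 FPKM there and 148, 117 and 153 in control, and Rps21 had 66.0, 106 and 151 FPKM in busulfan+L.J. and 105, 117 and 111 in control; both were picked for their spread after their values were seen. Rpl34 had 1.31, 3.11 and 2.96 FPKM in busulfan+L.J. and 2.76, 3.92 and 4.75 in control, the lowest difference of that comparison (-0.50 on the log2 scale, adjusted p = 1.00 by limma).

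The interaction asked whether the difference between busulfan+L.J. and L.J. was smaller than that between busulfan and control. It was negative in all 79 members, with a median of -0.59 on the log2 scale beside -0.05 in all tested genes, from -0.96 (Rps29) to -0.08 (Rpl36al). Limma called 0 members (0.0163% of tested genes), with a smallest adjusted p of 0.226, while 55 had an unadjusted p under 0.05 and were negative (69.6%, beside 7.28% of tested genes). Without busulfan 3, 65 were called and negative (82.3%, beside 8.00% of tested genes).

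Of the other lists apart from cell type markers, that of translation elongation and known TOP mRNAs had the highest median. In busulfan against control 18 of 19 had a positive difference, with a median of 0.37. Of the 19, 1 rose, beside 0.725% of all tested genes called higher. It was Eef1d, a subunit of the elongation factor 1 exchange complex. Eef1d had 84.2, 94.5 and 76.6 FPKM in busulfan and 65.2, 61.5 and 60.9 in control (log2 change 0.43, SE 0.09, adjusted p = 0.0486 by limma). Rack1, a scaffold protein on the small subunit, had 238, 269.6 and 158 FPKM in busulfan and 142, 148 and 143 in control and did not pass (adjusted p = 0.0764). Fau, whose product releases a small subunit protein that the symbol does not name, is not among the 81. Fau rose, with 595, 668 and 415 FPKM in busulfan and 326, 299 and 334 in control (adjusted p = 0.0383), and fell in busulfan+L.J. against busulfan, with 318, 305 and 326 FPKM in busulfan+L.J. (adjusted p = 0.0340). The like-genes Rps27l and Rpl7l1 had log2 differences of 0.20 and 0.01, and the 6 tested genes of the list with Fau had a median of 0.25 with 1 called.

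Lists of genes that make ribosomes or control their mRNAs had lower medians. In busulfan against control, 0.725% of all tested genes were called higher and 1.44% in either direction. Of 51 ribosome biogenesis genes 2 rose, Imp3 and Emg1, which serve small subunit processing, and none fell, with a median of 0.12. Imp3 had 31.7, 37.5 and 29.6 FPKM in busulfan and 23.7, 20.8 and 22.4 in control (log2 change 0.54, SE 0.10, adjusted p = 0.0401 by limma). Limma called 0 of 15 RNA polymerase I genes, with 4 at an unadjusted p under 0.05, beside 22.7% of tested genes. The smallest adjusted p by limma were those of Ubtf and Polr1d (0.0727 and 0.0796), and the median was 0.21. Of 21 initiation factor genes 1 fell, Eif4g2, with 146, 137 and 124 FPKM in busulfan and 171, 182 and 172 in control (adjusted p = 0.0486), and the median was close to 0. Of 20 genes of mTORC1 and TOP control 1 fell, Mtor, the kinase itself, with 21.1, 19.8 and 25 FPKM in busulfan and 28.2, 31.3 and 29.8 in control (adjusted p = 0.0486), while Larp1, a binder of TOP mRNAs, had 31.2, 30.3 and 30.3 FPKM in busulfan and 28.2, 30.4 and 34.3 in control (adjusted p = 0.948). Mtor rose in busulfan+L.J. against busulfan, with 32.2, 32.5 and 35.5 FPKM in busulfan+L.J. (log2 change 0.59, SE 0.09, adjusted p = 0.0245).

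Of 78 mitochondrial ribosomal protein genes 1 rose, Mrpl23, and none fell, beside 0.725% of all tested genes called higher. Their median was 0.05. Of 80 nuclear genes of oxidative phosphorylation, Atp5g2 and Ndufa7 rose, beside 0.725% of all tested genes called higher, and the median was 0.11. Of 17 proteasome genes limma called 0, and 0 had an unadjusted p under 0.05, beside 22.7% of tested genes. Their smallest adjusted p by limma were those of Psma7 and Psmb7 (0.287 and 0.293), and their median was -0.01. The median of the cytosolic members, 0.60, was thus above those of these translation, biogenesis and mitochondrial lists. Without busulfan 3 the medians were 0.78 for the members, 0.51 for elongation and TOP genes, 0.19 for biogenesis, 0.00 for mitochondrial ribosomal proteins and 0.00 for oxidative phosphorylation.

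**Figure D5:**
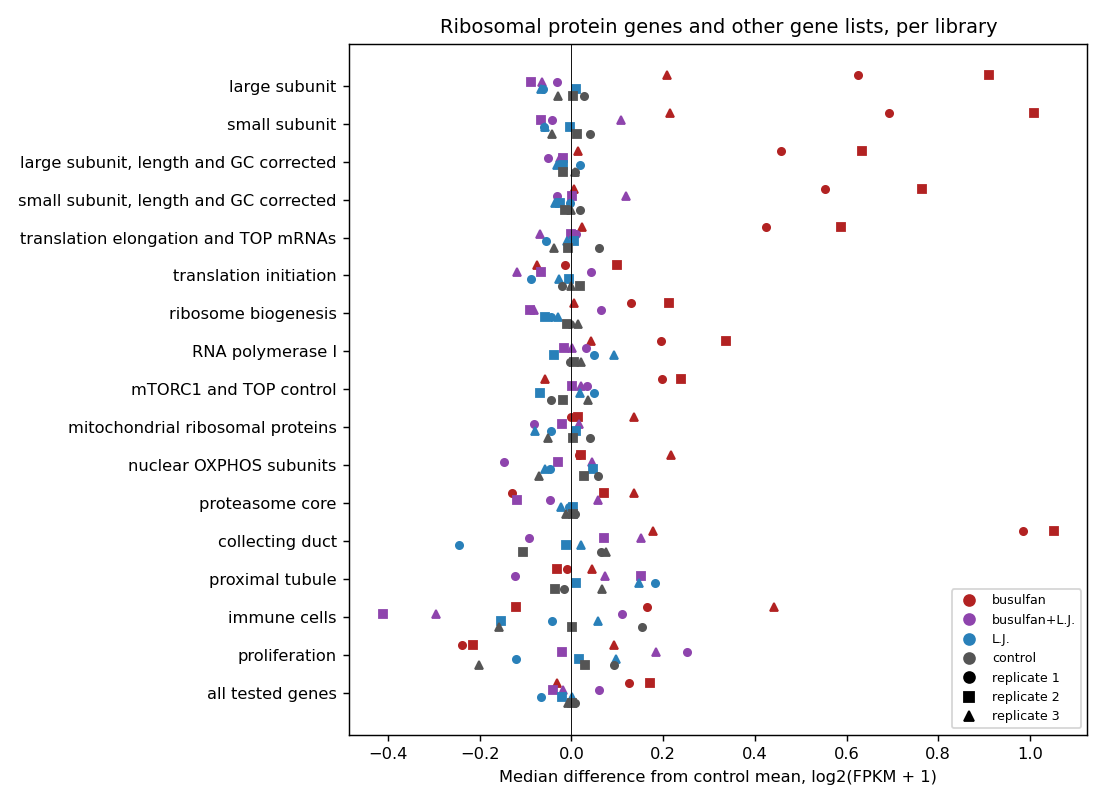
Median difference of each gene list from the control mean in log2(FPKM + 1), 1 symbol per library, coloured by group and shaped by replicate. The large and small subunit medians of busulfan 1 and 2 (0.63 to 1.01) stand to the right of most other lists, the collecting duct list lies at 0.99 and 1.05 in those libraries, and busulfan 3 is near 0 for the members after the length and GC correction.

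Collecting duct markers were high in the same libraries as the members. All 14 collecting duct markers had a positive difference in busulfan against control, with a median of 0.74. Their summed FPKM was 627, 684 and 373 in busulfan 1, 2 and 3, 315 to 361 in busulfan+L.J., 268 to 323 in L.J. and 326 to 348 in control. Hsd11b2, which protects the mineralocorticoid receptor, and Scnn1a, a subunit of the epithelial sodium channel, rose (adjusted p = 0.0428 and 0.0492 by limma). Those 2 of 14 stand beside 13.9% of the members and 0.725% of all tested genes called higher. In busulfan+L.J. against busulfan all 14 had a negative difference, with a median of -0.71. Of them 4 fell, beside 36.7% of the members and 2.06% of tested genes called lower. None of the 14 was at 0 in any library. The 12 proximal tubule markers were above 0 in every library. Without Kap, given above, the other 11 summed to 6879, 5896 and 7763 FPKM in busulfan and to 6783, 7215 and 7729 FPKM in control. In busulfan against control the median of 6 thick ascending limb markers was 0.37, that of 12 proximal tubule markers -0.14 and that of 11 podocyte and endothelial markers -0.07. Limma called 0 in each, and 3, 4 and 1 of them had an unadjusted p under 0.05, beside 22.7% of tested genes. Fewer cells of a type and less RNA per cell cannot be told apart in bulk kidney, and the part of the cell makeup in the members' difference was not tested.

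Immune markers were summed in the same way. The summed FPKM of the 22 immune markers in the table was 96.7 to 179 in busulfan, 44.3 to 83.6 in busulfan+L.J., 62.4 to 89.6 in L.J. and 69.2 to 77.0 in control, with none at 0 in any library. Of 14 tested, 1 rose in busulfan against control, Mzb1, a plasma cell gene, beside 0.725% of all tested genes called higher. The median was 0.05, with 8 positive and 6 negative. In busulfan+L.J. against busulfan 3 of the 14 fell, beside 2.06% of tested genes called lower. The median there was -0.30, with 4 positive and 10 negative. In busulfan 1, 2 and 3 the sums were 138, 179 and 96.7 FPKM. The medians of the tested markers against the control mean were 0.16, -0.12 and 0.44 there, so they did not follow the sums. S100a8 and S100a9 together made up a large part of the sums of busulfan 1 and 2. S100a8 and S100a9, abundant in neutrophils, had 28.5, 44.0 and 1.92 FPKM and 32.6, 51.9 and 3.73 FPKM in busulfan, against 0.990, 1.52 and 0.750 FPKM and 2.02, 1.80 and 1.23 FPKM in control (adjusted p = 0.0665 and 0.0543). In busulfan against control the 10 tested proliferation genes had a median of -0.08 and the 8 erythroid genes of -0.13. Limma called 0 in either, with 1 and 0 at an unadjusted p under 0.05, beside 22.7% of tested genes. Whether these cells account for any of the members' difference was not tested.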

How the data were processed

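RNA sequencing of 12 kidney libraries was analysed from the table the authors deposited: FPKM values per gene, rounded to 2 decimals, per the file headers. Bowtie 0.12.2 and mm10 are named in the submitters' processing notes; how reads were counted, with which annotation and strandedness, is not given in the sources used here. Of the symbols, 26 stored as dates were restored by gene identifier, and 1 repeated symbol was kept once. Genes with at least 1 FPKM in at least 3 libraries (12281) were tested on log2(FPKM + 1), so changes of low genes are understated. With limma 3.58.1 in R 4.3.3 (trend option), a model of 4 group means was fitted to the 12 libraries and tested two-sided, with Benjamini-Hochberg adjustment over all tested genes; an adjusted p under 0.05 was called. The values are not counts, so no count model was used. The fit takes 1 spread per gene for all 4 groups, although the members' median coefficient of variation was 24.8% in busulfan and 4.52% in control. The calls that involve busulfan depend on this pooling. With limma on only the groups compared, the smallest adjusted p of a member was 0.220 for busulfan against control and 0.273 for busulfan+L.J. against busulfan. The method was run on simulated data, with noise taken from the libraries outside the busulfan group and the same spread in every group. That run does not cover the wider spread of the busulfan libraries.

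GENCODE release M21 supplied length and GC content of transcripts (98.6% of tested genes), and RefSeq (GRCm38.p6) supplied coordinates and start sites. Replicate numbers did not pair the libraries: deviations of same-numbered libraries correlated between -0.24 and 0.08. Members and gene lists were chosen with earlier results of these data known. Named genes were up to 10 called members per comparison by smallest p, the highest and lowest levels and differences of each subunit, stalk and Mdm2-binding genes, 9 single members chosen for their known roles, and up to 4 called genes of other lists, or those with the smallest p; Larp1, Rack1, Rpl37rt, Rps27l, Rpl7l1, S100a8 and S100a9 were named outside this rule after their values were seen. Some genes that the rule names are not reported here. Alternatives were a pseudocount of 0.1, no filter, 3 other scalings, weights per library, a block for the replicate number, fits of only the compared groups, a length and GC correction, and each library left out. Tables and plots used Python 3.11.15, pandas 2.3.3 and matplotlib 3.10.9.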

Additional observations from a re-analysis of the deposited data

How the results depend on the processing

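The median differences of the members in busulfan against control (0.60) and busulfan+L.J. against busulfan (-0.63) kept their sign under every alternative run, and the counts of members called did not hold. The percent of all tested genes called is given in brackets. For busulfan against control the 11 calls (1.44%) became 13 with a pseudocount of 0.1 (1.63%) and 24 with median-of-ratios scaling (3.17%). Quantile normalization gave 5 of 79 (4.1%). Library weights gave 78, 77 higher and 1 lower (59.5%), where busulfan 1 had a weight of 11 against 0.51 and 0.09 for busulfan 2 and 3. The count was 0 with no filter (0.298%) and with a total without Kap (1.77%). It was also 0 with only the groups compared (0%) and after the length and GC correction (0%). For busulfan+L.J. against busulfan the 29 calls (3.24%) became 7 with no filter (0.813%), 11 with quantile normalization (5.34%) and 10 with a total without Kap (2.8%). Library weights gave 78 (59.5%). The count was 0 with only the groups compared (0.0163%) and 0 after the length and GC correction (0.173%), where the median was -0.37. For the interaction the 0 calls became 71 with library weights (33.8% of tested genes called), and the length and GC correction moved the median to -0.40. With the replicate number as a block 0 members were called in either of the first 2 comparisons, 75 and 77 of 79 having an unadjusted p under 0.05 (20.6% and 21.6% of tested genes); the numbers do not pair the libraries. All genes' medians in busulfan against control were 0.08 as deposited and 0.00 to 0.01 under the 3 scalings, and 78 of 79 members then stayed positive.

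Leaving out 1 library at a time gave 0 to 76 calls and medians of 0.43 to 0.78 for busulfan against control, 0 to 76 calls and -0.82 to -0.45 for busulfan+L.J. against busulfan, and 0 to 65 calls and -0.78 to -0.42 for the interaction. The highest counts came without busulfan 3, where 32.5%, 31.6% and 12.1% of tested genes were called in the same order. The ratio of summed shares was 1.33 to 1.78 for busulfan against control and 0.55 to 0.74 for busulfan+L.J. against busulfan, the second being 0.67 with Kap left out of the total; for L.J. and for busulfan+L.J. against control it was 0.96 to 0.98 and 0.98 to 1.00. These ratios without single libraries were chosen after seeing the data. Depth limits cannot be given, since the table holds no counts.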
